A study of Mus musculus with 13 samples.

Results

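Open chromatin of nephron progenitors (NP) was compared with that of loop of Henle (LOH) cells in the newborn mouse kidney by single nuclei ATAC-seq (snATAC-seq), in which a transposase cuts and tags the open DNA of each nucleus. The nuclei were those that carry the cluster names NP or LOH in the deposited annotation of the 2 P0 samples, 3324 of the 11429 P0 nuclei and of the 28316 nuclei of the series. P0 replicate 1 held 1032 NP and 635 LOH nuclei, and P0 replicate 2 held 1005 NP and 652 LOH nuclei. Among the 13 annotated cell types, NP made up 17.5% and 18.8% of the nuclei of the samples and LOH 10.7% and 12.2%.

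Both samples are whole kidneys labelled P0, taken per the protocol from 1-day-old mice of which both kidneys were harvested. The labels give no genotype, strain or treatment for them, and do not say whether the samples came from separate animals. P-values therefore set the NP to LOH difference against its variation between these samples, beside counting error, and that variation may be technical. With 2 samples the fit draws this variation largely from all genes or peaks together. A small p-value is thus no measure of how closely the samples matched for that gene or peak. The other snATAC-seq samples of the series, 1 from P21 and 2 from P56 kidneys, enter only the comparison with adult nuclei at the end.

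Nephron progenitors are mesenchymal cells that cap the tips of the branching ureteric bud, where the transcription factor Six2 keeps them self-renewing until Wnt signals turn some of them into epithelium. The resulting renal vesicle elongates and is patterned from podocytes at one end, through the proximal tubule and the loop, to the distal tubule at the other. The thick ascending limb of the loop takes up sodium chloride through the cotransporter encoded by the gene Slc12a1 and is impermeable to water, which allows the kidney to concentrate urine. Much of the cell type-specific chromatin of such lineages lies in distal elements, many of which act as enhancers.

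The distal peaks with the largest fold changes among widely open ones, and the strongest peaks near genes that mark either cell type, carry the comparison, and the DNA at the centre of 7 of them is shown here. Each line gives the central 300 bp of a peak, 5′ to 3′ on the plus strand of mm10 (GRCm38), copied from the RefSeq GRCm38.p6 sequence. Capitals mark letters that match any of the 15 motif strings listed with the motif shares. Peaks more open in NP lay at chr5:120054705-120055004 (nearest protein-coding start Rbm19), chr7:52252721-52253020 (1700015G11Rik), chr17:85748502-85748801 (Six2) and chr1:14344923-14345222 (Eya1). Peaks more open in LOH lay at chr4:154774219-154774518 (Ttc34), chr1:19245070-19245369 (Tfap2b) and chr2:125162184-125162483 (intron of Slc12a1).
NP, Rbm19 peak: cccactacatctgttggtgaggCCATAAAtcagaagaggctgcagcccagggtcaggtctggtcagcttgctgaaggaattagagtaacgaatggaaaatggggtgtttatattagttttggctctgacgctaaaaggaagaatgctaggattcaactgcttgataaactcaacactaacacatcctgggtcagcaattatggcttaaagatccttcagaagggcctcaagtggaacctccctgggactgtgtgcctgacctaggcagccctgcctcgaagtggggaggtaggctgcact
NP, 1700015G11Rik peak: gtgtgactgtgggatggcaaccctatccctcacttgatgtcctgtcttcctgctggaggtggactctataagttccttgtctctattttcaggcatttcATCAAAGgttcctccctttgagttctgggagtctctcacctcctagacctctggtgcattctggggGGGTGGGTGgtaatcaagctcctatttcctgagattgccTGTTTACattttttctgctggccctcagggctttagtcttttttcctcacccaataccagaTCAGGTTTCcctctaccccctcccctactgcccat
NP, Six2 peak: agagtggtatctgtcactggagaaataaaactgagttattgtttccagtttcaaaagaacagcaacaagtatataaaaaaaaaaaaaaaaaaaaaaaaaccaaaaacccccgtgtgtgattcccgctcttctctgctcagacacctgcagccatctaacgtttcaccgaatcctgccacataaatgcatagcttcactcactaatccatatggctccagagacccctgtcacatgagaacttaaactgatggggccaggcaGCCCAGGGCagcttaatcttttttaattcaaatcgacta
NP, Eya1 peak: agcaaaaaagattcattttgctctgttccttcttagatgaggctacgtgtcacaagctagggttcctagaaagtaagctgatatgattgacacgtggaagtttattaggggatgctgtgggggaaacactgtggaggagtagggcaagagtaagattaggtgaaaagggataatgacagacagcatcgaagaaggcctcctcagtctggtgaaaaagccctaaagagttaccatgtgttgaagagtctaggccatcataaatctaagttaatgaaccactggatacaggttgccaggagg
LOH, Ttc34 peak: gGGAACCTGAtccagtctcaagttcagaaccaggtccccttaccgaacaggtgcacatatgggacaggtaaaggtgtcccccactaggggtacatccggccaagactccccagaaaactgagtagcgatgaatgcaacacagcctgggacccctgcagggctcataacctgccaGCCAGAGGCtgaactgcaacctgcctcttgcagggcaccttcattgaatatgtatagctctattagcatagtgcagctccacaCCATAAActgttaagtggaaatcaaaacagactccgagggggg
LOH, Tfap2b peak: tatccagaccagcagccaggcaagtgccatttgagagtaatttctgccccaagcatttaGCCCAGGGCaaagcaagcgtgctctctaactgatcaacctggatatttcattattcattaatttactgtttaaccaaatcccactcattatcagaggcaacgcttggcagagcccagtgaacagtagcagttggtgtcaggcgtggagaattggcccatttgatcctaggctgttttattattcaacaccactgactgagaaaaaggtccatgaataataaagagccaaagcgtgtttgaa
LOH, Slc12a1 peak: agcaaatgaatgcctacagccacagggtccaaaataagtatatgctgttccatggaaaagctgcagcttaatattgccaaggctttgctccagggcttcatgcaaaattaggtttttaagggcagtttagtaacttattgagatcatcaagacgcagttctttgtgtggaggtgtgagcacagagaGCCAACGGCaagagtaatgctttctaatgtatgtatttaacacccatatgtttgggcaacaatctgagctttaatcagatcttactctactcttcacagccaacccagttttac

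Depth was similar for both cell types. The median nucleus had 5897.5 (NP) and 6567 (LOH) open peaks in replicate 1 and 7226 and 7430 in replicate 2. Of the barcodes of these nuclei, 4 occurred in both P0 libraries, 2 of them with the same cluster name in each. The annotation was compared with marker genes. Because the clusters were named from the openness of such markers, several of them listed here, this shows how the names relate to the files and is no independent check. The 8 NP markers (Six2, Uncx, Cited1, Eya1, Meox1, Osr1, Crym and Itga8) held 403 and 388 per 1000000 open calls in NP, the highest of the 13 cell types in either sample, against 246 and 217 in LOH and at most 353 and 326 in the other 11 types, which stromal clusters reached. The 8 LOH markers (Slc12a1, Umod, Kcnj1, Pou3f3, Irx1, Irx2, Tfap2b and Cldn19) held 446 and 473 in LOH, also the highest of the 13, against 128 and 124 in NP. The distal convoluted tubule (DCT) was close to LOH on these markers, with 364 and 472.

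To ask which genes differ between the progenitor and the tubule, gene activity was computed as the open calls in peaks over a gene body and the 2 kb upstream of it, summed over the nuclei of a cell type and sample. An open call is a nucleus with a fragment in a peak, so activity per nucleus is the mean number of open peaks of the gene. Fold changes are NP over LOH on the log2 scale, from an edgeR quasi-likelihood fit with the sample as block and TMM scaling, which sets each difference against the total of open calls. Each is given with a standard error (SE) derived from its test statistic. That SE rests on variation shared over genes or peaks, so the samples can lie farther apart than it implies. Because the clusters were themselves drawn from the open chromatin of these nuclei, the adjusted p-values rank genes and peaks and are no independent test that the clusters differ.

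Gene activity differed in 44.4% of the 27260 genes tested (adjusted p under 0.05), with 6054 genes higher in NP (22.2%) and 6051 higher in LOH (22.2%). Most of these differences were small. Of the called genes, 71.0% differed by less than 2-fold, and the median absolute difference was 0.61 on the log2 scale. At least 4-fold differences were seen in 535 genes higher in NP and 459 higher in LOH. The direction was the same in both samples for 12076 of the 12105 called genes, beside 21612 of all 27260 tested genes. The calls come from these same samples, which favours such agreement. The count depends on the method, since DESeq2 called 2402 genes higher in NP and 1953 higher in LOH. It also depends on scaling, because LOH nuclei had more open peaks: per nucleus in place of per open call, the median log2 fold change of all genes moved from -0.01 to -0.13 and the counts became 4418 and 8790, a share of 33.4% higher in NP among the called genes in place of 50.0%.

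Most regulators that define the progenitor state were more accessible in NP. Of 25 progenitor transcription factors, 20 (80%) were higher in NP and 0 were higher in LOH, beside 22.2% of all tested genes in each direction. The median difference was 0.43, against -0.01 over all genes tested. Six2, which maintains the progenitor pool, is covered by 1 peak (gene at chr17:85684277-85688274) and had 0.353 and 0.431 open calls per nucleus in the NP of replicates 1 and 2 against 0.145 and 0.133 in the LOH nuclei. Its log2 fold change was 1.61 ± 0.10 (SE, adjusted p = 9.72e-49). Wt1, needed for survival of the metanephric mesenchyme and later a podocyte factor, had 0.775 and 0.887 open calls per NP nucleus and 0.326 and 0.339 per LOH nucleus, a log2 fold change of 1.44 ± 0.07. Eya1, a cofactor of Six2 and its relatives, had 0.553 and 0.700 in NP and 0.357 and 0.345 in LOH. For each of these genes both NP values lay above both LOH values.

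Meox2 (1.37), Eya4 (1.22), Osr1 (1.02), Uncx (0.75) and Pax2 (0.33) were also higher in NP on the log2 scale. Cited1, a marker of the uninduced progenitor, was higher in NP by about the median of the progenitor transcription factors. It had 0.181 and 0.231 open calls per NP nucleus and 0.172 and 0.161 per LOH nucleus (0.43 ± 0.11). The 5 members that did not pass included Hoxa10 (-0.0080), Six4 (-0.05), Sall4 (-0.05) and Hoxd10 (-0.08).

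Of 26 signals, receptors and surface proteins of the progenitor, 14 (53.8%) were higher in NP and 5 (19.2%) in LOH, with a median of 0.32. The share higher in LOH was near the 22.2% of all tested genes. Gdnf, the ligand that draws out the ureteric bud, had 0.391 and 0.449 open calls per NP nucleus and 0.203 and 0.253 per LOH nucleus (0.99 ± 0.09). Cdh11 (1.46), a mesenchymal cadherin, Rspo1 (1.29), an enhancer of Wnt signals, Robo2 (0.94), the Slit receptor that confines Gdnf, and Itga8 (0.90), the integrin chain by which the mesenchyme holds the bud, were higher in NP. Bmp7, a progenitor survival factor, went the other way, with 0.825 and 1.05 open calls per NP nucleus against 1.62 and 1.89 per LOH nucleus, a log2 fold change of -0.79 ± 0.05 (adjusted p = 4.71e-55). Fgf9, Igf2bp1, Lgr5 and Dapl1 were the other members higher in LOH, by between -0.17 and -0.59, of which Igf2bp1 had the opposite sign with start peaks alone (0.0097) and Lgr5 (0.083) after each nucleus was thinned to 1000 open calls, which left out 28 NP and 25 LOH nuclei of P0_1 and 12 and 11 of P0_2 that had fewer. Fgfr2 is counted over an extended gene model that holds 628 peaks, so its value of 0.04 says little about Fgfr2 itself.

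Of 22 genes of induction and of the renal vesicle, the first epithelial stage, 5 (22.7%) were higher in NP and 9 (40.9%) in LOH, beside 22.2% of all tested genes in each direction, and the median was -0.13. Wnt4, the signal that drives the conversion to epithelium, had 0.455 and 0.542 open calls per NP nucleus against 0.254 and 0.313 per LOH nucleus (0.93 ± 0.08). Heyl (0.90) and Hey1 (0.37), targets of Notch, were also higher in NP. Emx2 (-1.23), Hes5 (-1.32), Papss2 (-0.90), Lhx1 (-0.40), Notch1 (-0.28), Pax8 (-0.24) and Notch2 (-0.18) were higher in LOH. Lhx1, a renal vesicle regulator, had 0.138 and 0.202 open calls per NP nucleus and 0.217 and 0.267 per LOH nucleus, so that its highest NP value came close to its lowest LOH value.

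Most transcription factors of the distal tubule were more accessible in LOH. Of 26 members, 19 (73.1%) were higher in LOH and 1 in NP, beside 22.2% of all tested genes in each direction. The median was -0.70. Pou3f3, a POU factor of the loop and distal tubule, had 0.0891 and 0.0985 open calls per NP nucleus and 0.471 and 0.575 per LOH nucleus (-2.36 ± 0.10, adjusted p = 2.17e-107). Tfap2b, an AP-2 factor of the distal nephron, had 0.0872 and 0.102 in NP and 0.463 and 0.523 in LOH (-2.26 ± 0.10). Both genes thus had about the same low level in the NP of either sample.

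Sim1 (-1.82), Tfcp2l1 (-1.55), Grhl2 (-1.22), Tfap2a (-1.21) and Irx1 (-1.13) were higher in LOH as well. Elf5 was the member higher in NP (0.42), and Foxa1, Pou3f2, Pou3f4, Stat3, Bhlhe40 and Tfeb did not pass.

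Of 42 genes for the transport work and secreted products of the loop, 26 (61.9%) were higher in LOH and 8 (19.0%) in NP, with a median of -0.31. The share higher in NP was near the 22.2% of all tested genes. Slc12a1, the sodium, potassium and chloride cotransporter that loop diuretics block, had 0.112 and 0.103 open calls per NP nucleus and 0.487 and 0.727 per LOH nucleus, a log2 fold change of -2.37 ± 0.09 (adjusted p = 1.82e-125). The LOH values of the samples differed from each other more than the NP values did. The log2 ratios of replicates 1 and 2 were -1.94 and -2.74, farther apart than the SE implies. Kcnj1 (-2.05), the channel that recycles potassium for that cotransporter, Bsnd (-1.71), a subunit of basolateral chloride channels, and Cldn16 (-2.30) and Cldn19 (-1.84), which form the paracellular path for magnesium and calcium, were all higher in LOH.

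Umod, the most abundant protein of urine and a marker of the mature loop, had low activity in both cell types, with 0.0979 and 0.101 open calls per NP nucleus and 0.175 and 0.238 per LOH nucleus (-0.93 ± 0.13). The 8 members higher in NP were Enox1 (0.56), Cldn14 (0.51), Thsd4 (0.50), Wnk4 (0.38), Nos1 (0.37), Slc14a2 (0.27), Egf (0.27) and Slc8a1 (0.20), of which Cldn14 and Egf had the opposite sign when only peaks around the gene start were counted (-0.20 and -0.046).

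Epithelial genes were mostly higher in LOH, while the mesenchymal genes that passed the threshold were higher in NP. Of 37 genes of epithelial junctions and polarity, 34 (91.9%) were higher in LOH, beside 22.2% of all tested genes. The median was -0.72. Cdh1, which encodes E-cadherin, had 0.272 and 0.350 open calls per NP nucleus and 0.734 and 0.998 per LOH nucleus (-1.36 ± 0.07). Esrp1 (-2.26), an epithelial splicing regulator, Cldn3 (-2.05) and Cldn4 (-1.89), tight junction claudins, and Epcam (-1.59) were higher in LOH. The 2 members higher in NP included Tjp1 (0.36), which encodes a scaffold protein of the tight junction, and Rab25 did not pass.

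Of 23 mesenchymal and matrix genes, 10 (43.5%) were higher in NP and 0 in LOH, beside 22.2% of all tested genes in each direction. The median was 0.21. Tnc, the matrix protein tenascin C, had 0.561 and 0.621 open calls per NP nucleus and 0.186 and 0.175 per LOH nucleus (1.83 ± 0.08). Sparc (1.56), Cdh2 (0.93), which encodes N-cadherin, and Vim (0.90) were also higher in NP. The collagens Col1a2 and Col3a1 and the regulators Snai1, Snai2 and Twist1 were among the 13 members that did not pass.

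Hox genes, which give the metanephros its position along the body axis, were tested by paralog group. Of 15 genes of groups 9 to 13, 7 were higher in NP and 0 in LOH (median 0.17). Of 23 genes of groups 1 to 8, 12 (52.2%) were higher in NP and 5 in LOH (median 0.31), and these 5 are 21.7% of the list, near the 22.2% of all tested genes. The largest differences were seen for Hoxc8 (1.52), Hoxa6 (1.44), Hoxc4 (1.39) and Hoxd12 (1.17), while Hoxa11 (0.43), Hoxc11 (0.51) and Hoxd11 (0.51), paralogs that kidney formation depends on, differed less. All 5 Hox genes higher in LOH had small differences, from -0.16 (Hoxb3) to -0.44 (Hoxd8). Genes of a Hox cluster overlap in the annotation and share peaks, so these counts are not independent of each other.

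Of the cell cycle genes 15 of 20 did not pass the threshold, and of the mitochondrial genes 14 of 21. Over all tested genes, 44.4% were called in either direction. Of 20 cell cycle genes, 2 were higher in NP (Ccna2 and Ccnd2) and 3 in LOH (Ccnb1, Mcm2 and Plk1), none by more than 0.30 in size, with a median of -0.11. Of 21 genes of mitochondrial biogenesis and oxidation, 6 were higher in LOH and 1 (Uqcrc1) in NP, with a median of -0.15. The 6 are 28.6% of the list, near the 22.2% of all tested genes that were higher in LOH. They include Acadl (-0.81) and Cpt1a (-0.42), enzymes of fatty acid oxidation, and the coactivator Ppargc1a (-0.63), whose activity was 0.349 and 0.346 open calls per NP nucleus and 0.600 and 0.574 per LOH nucleus.

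**Figure D1:**
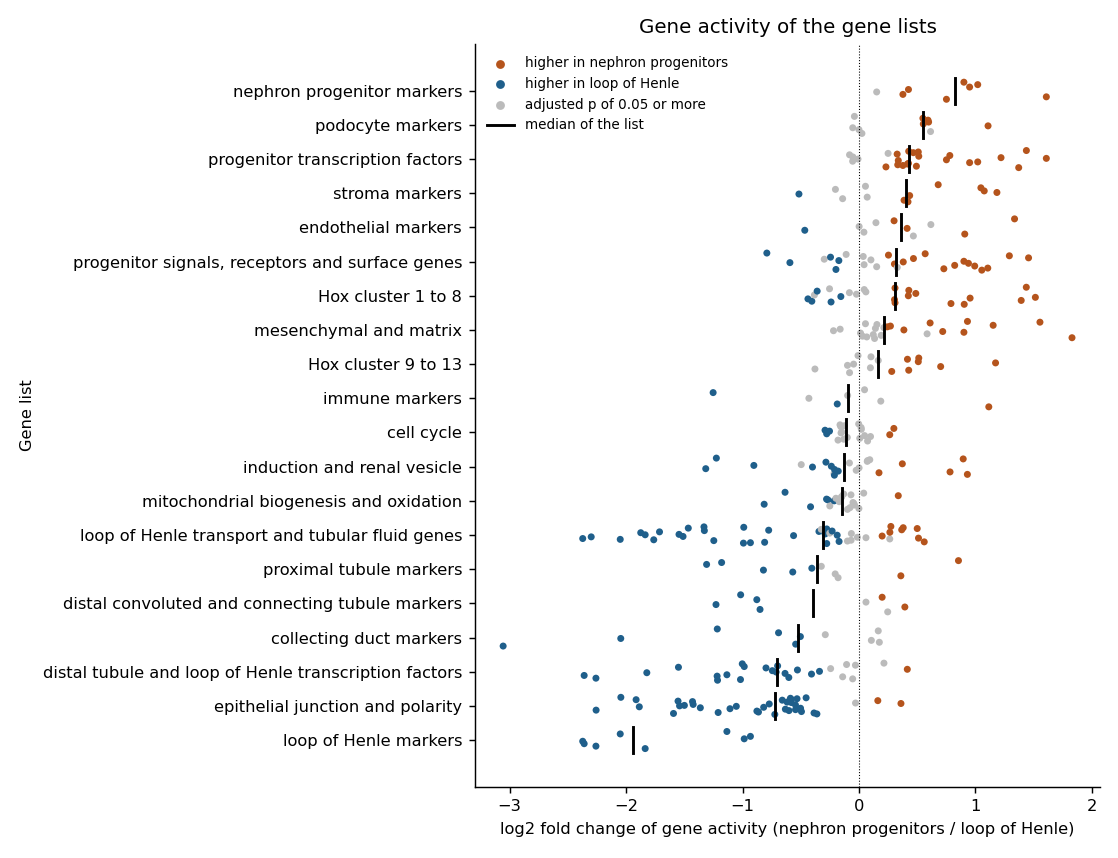
Log2 fold change of gene activity (nephron progenitors over loop of Henle, horizontal axis) for the members of 20 gene lists (rows, ordered by their median), 1 point per gene, coloured by direction where the adjusted p was under 0.05 and grey otherwise, with the list median as a bar. The marker lists of the compared cell types stand at opposite ends, with medians of 0.83 and -1.94, and the cell cycle list sits near 0.

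With DESeq2, which called 8.81% of all genes higher in NP and 7.16% higher in LOH, the list counts were smaller. Progenitor transcription factors had 12 genes higher in NP and 0 in LOH, progenitor signals 10 and 1, and induction genes 3 and 3. Henle loop transcription factors had 0 and 18, transport genes 4 and 20, and junction and polarity genes 1 and 27. Mesenchymal genes had 6 and 0, Hox groups 9 to 13 had 3 and 0, Hox groups 1 to 8 had 8 and 0, mitochondrial genes 0 and 3, and cell cycle genes 0 and 0, with 0 of the 20 at an unadjusted p under 0.05. Of the markers of other cell types described next, stroma markers had 5 and 1, podocyte 3 and 0, endothelial 2 and 0, collecting duct 0 and 3, proximal tubule 1 and 4, distal convoluted and connecting tubule 0 and 3, and immune 1 and 1.

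Markers of other cell types were counted in the same way, beside the 22.2% of all tested genes that were higher in NP and the 22.2% that were higher in LOH. Of 12 stroma markers, 7 were higher in NP, among them Foxd1 (1.19), Meis2 (1.08) and Meis1 (1.05), and 1, Ntn1, in LOH (median 0.40). The list took 929 and 879 per 1000000 open calls in NP and 684 and 635 in LOH. Of 10 podocyte markers, 5 were higher in NP, with Nphs1 at 0.60, and 0 in LOH (median 0.55), at 661 and 644 per 1000000 open calls in NP and 562 and 522 in LOH. Of 10 endothelial markers, 4 were higher in NP, with Cdh5 at 1.34, and 1 in LOH (median 0.36), at 324 and 319 against 278 and 264.

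Of 10 collecting duct markers, 6 were higher in LOH, led by Foxi1 (-3.06), a factor of intercalated cells, and 0 in NP, at 160 and 164 per 1000000 open calls in NP and 243 and 219 in LOH. Of 10 proximal tubule markers, 5 were higher in LOH, led by Slc22a6 (-1.31), and 2 in NP, at 373 and 383 against 454 and 466. Of 8 markers of the distal convoluted and connecting tubule, 4 were higher in LOH, led by Trpv5 (-1.23), and 2 in NP, at 309 and 310 against 422 and 412. Of 7 immune markers, Laptm5 (1.12) was higher in NP, with the opposite sign at its start alone (-0.52), and Ptprc (-1.25) and Cx3cr1 (-0.19) were higher in LOH, at 249 and 274 against 280 and 323. In either direction, 3 of 7 immune and 5 of 10 endothelial markers were called, near the 44.4% of all genes. No tested marker of these lists was at 0 in either cell type. Whether nuclei of other types within either cluster contribute to the differences was not tested.

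Protein-coding genes were ranked among those with at least 0.1 open calls per nucleus in both samples of the higher cell type, which leaves out genes of low activity such as Foxi1. The largest differences among them were mostly in genes with few peaks. Those in NP were led by Insl5, an insulin-like peptide gene, at 3.38 ± 0.21, and Olfr543, an olfactory receptor gene, at 3.28 ± 0.24. Insl5 is covered by 1 peak, open in 172 and 209 NP nuclei and in 12 and 13 LOH nuclei. Zp2, the gene of an egg coat protein (2.88), also has 1 peak, which is the strongest peak within 100 kb of the start of Crym, a progenitor marker whose own activity did not differ past the threshold (0.15). For genes of this kind, activity is the openness of 1 element and says nothing of transcription.

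In LOH the largest differences at this level of activity were those of Smim6 (-3.48 ± 0.22, 1 peak), Ttll10 (-2.72 ± 0.10, 6 peaks) and Kng2 (-2.71 ± 0.15, 7 peaks), the last a kininogen gene. Kif12, a kinesin gene of the renal tubule, had 0.0581 and 0.105 open calls per NP nucleus and 0.444 and 0.525 per LOH nucleus (-2.45 ± 0.10). The log2 ratios of replicates 1 and 2 were -2.76 and -2.24 for Kif12 and -3.15 and -2.42 for Ttll10. Slc12a1 was the 10th of the 3348 candidates, while no member of the progenitor lists was among the first 10 in NP.

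Of 115531 peaks tested, 28.3% were more open in NP and 27.6% in LOH. Peaks were called distal when they overlapped no GENCODE gene and none of the 5 kb upstream of one. Of 31509 distal peaks tested, 10544 were more open in NP (33.5%) and 8400 in LOH (26.7%). At least 4-fold differences were seen in 4285 distal peaks for NP and 3517 for LOH. The direction was the same in both samples for 18921 of the 18944 called distal peaks, which were called from these same samples. DESeq2 called 6125 and 4841.

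The size of the difference varied with where a peak lay. The median absolute log2 fold change was 1.03 for distal peaks and 1.05 for the 47167 intronic peaks, but 0.24 for the 18850 peaks over an annotated start. Of the start peaks, 26.6% were more open in LOH and 12.4% in NP, while distal (26.7% and 33.5%) and intronic peaks (29.0% and 31.9%) leaned to NP. The shift of start peaks was small, with a median log2 fold change of -0.11. At 2-fold or more, 8.22% of them were more open in LOH and 5.01% in NP. Start peaks were open in more nuclei, with a median of 13.4% of nuclei against 2.34% for distal peaks, so they were measured with less counting error. Counting error widens the fold changes of peaks open in few nuclei. Openness was not held equal between the kinds, so its part in their different spread was not tested. Distal peaks more open in NP also lay farther from genes, at a median of 76.9 kb from the nearest protein-coding start against 49.7 kb for those more open in LOH and 42.3 kb for those past neither threshold. The share over 100 kb away was 42.9% for NP and 31.7% for LOH.

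**Figure D2:**
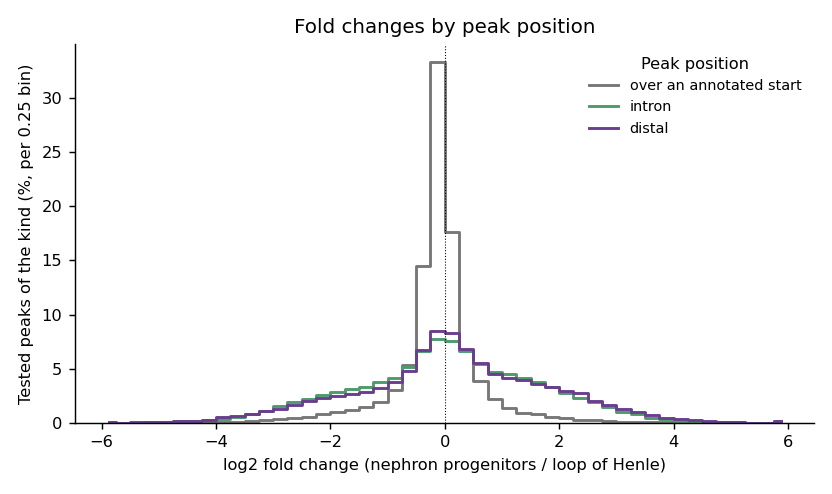
Distribution of the log2 fold change (nephron progenitors over loop of Henle, horizontal axis) of tested peaks over an annotated start, in introns and in distal regions, as the percent of the tested peaks of each kind per bin of 0.25 (vertical axis, outermost bins holding all values beyond them). Start peaks pile up around 0, while intronic and distal peaks spread over several log2 units on both sides.

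Distal peaks were ranked among those open in at least 10% of the nuclei of the higher cell type in both samples, since larger fold changes occur in peaks open in few nuclei. The NP peak with the largest difference lay 61611 bp from the start of Rbm19, in the first sequence shown. It was open in 17.4% and 19.0% of NP nuclei (180 and 191 nuclei, exact binomial intervals 15.2 to 19.9% and 16.6 to 21.6%) and in 0.63% and 0.46% of LOH nuclei (4 and 3 nuclei). The log2 fold change was 5.08 ± 0.27 (adjusted p = 1.71e-41). Among the 11 other P0 cell types, the highest mean share of the samples was 3.16%, in a stromal cluster, and the highest share in 1 sample was 3.96%, in the connecting tubule of replicate 2.

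The peak 237142 bp from the start of 1700015G11Rik was open in 12.6% and 13% of NP nuclei and in 0.16% and 0.92% of LOH nuclei, 1 and 6 nuclei. A peak 12875 bp from the start of Alcam, a cell adhesion molecule, was open in 14.6% and 15.7% of NP and in 0.94% and 0.46% of LOH nuclei. All 10 leading NP peaks were open in more NP nuclei than nuclei of any of the 11 other types, whose highest mean share was between 1.24% and 4.38%. Of these 10 peaks, 2 had the same nearest start, that of the endothelial cadherin gene Cdh5, at 570423 and 607340 bp.

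The leading LOH peaks behaved differently across cell types. The DCT held 51 and 57 nuclei in replicates 1 and 2, so its shares are imprecise. The Ttc34 peak, 63091 bp from that gene, was open in 0.29% and 0.40% of NP nuclei (3 and 4) and in 10.1% and 12.3% of LOH nuclei (64 and 80), a log2 fold change of -4.91 ± 0.34 (adjusted p = 3.14e-30), and in 23.5% and 17.5% of DCT nuclei. The Tfap2b peak, 36305 bp from the start, was open in 0.97% and 1.19% of NP nuclei, in 20.9% and 24.7% of LOH nuclei and in 23.5% and 28.1% of DCT nuclei. A peak 538390 bp from the start of Ppargc1a was open in 0.29% and 0.50% of NP, 11% and 11.7% of LOH and 17.6% and 33.3% of DCT nuclei. In 8 of the 10 leading LOH peaks the mean share of at least 1 other cell type exceeded that of LOH, most often the DCT. The exceptions were the Trim52 peak, where principal cells of the collecting duct reached a mean of 9.51%, and the Bmper peak, where the DCT reached a mean of 9.18%. Bmper itself, a regulator of bone morphogenetic proteins, had higher gene activity in NP (0.78).

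**Figure D3:**
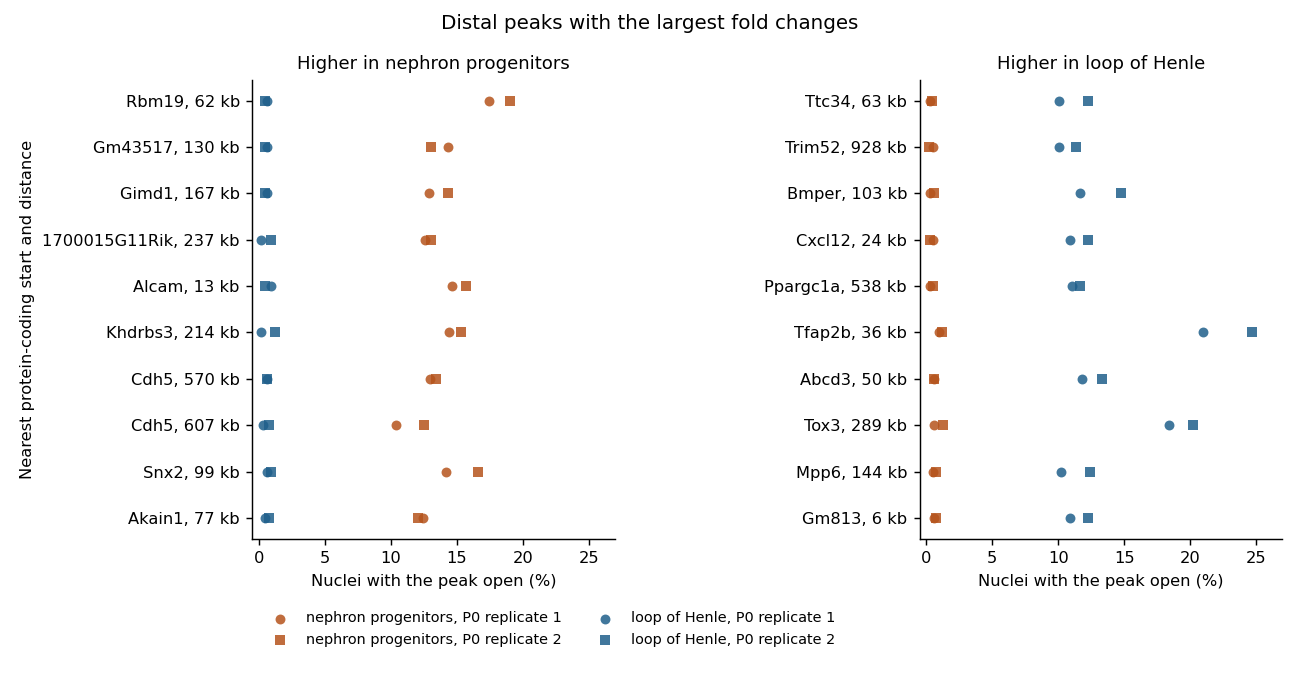
Percent of nuclei with the peak open (horizontal axis) for the 10 distal peaks with the largest fold change in each direction among those open in at least 10% of the nuclei of the higher cell type in both samples, labelled by the nearest protein-coding start and its distance, with nephron progenitors in orange, loop of Henle in blue, circles for P0 replicate 1 and squares for replicate 2. In each peak the replicates of a cell type lie close together and the cell types do not overlap, with the lower cell type near 0.

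These patterns held across the whole sets of distal peaks with at least 4-fold differences. The 4285 NP peaks took 3.46% and 3.18% of all open calls in NP. The next cell types were podocytes with a mean of 1.20% and the stromal clusters with 0.97% each, and LOH had 0.50%. The 3517 LOH peaks took 2.23% and 2.24% of the open calls in LOH, but 2.56% on average in the DCT, 2.16% in the connecting tubule, 2.10% in principal cells, 1.78% in intercalated cells and 1.48 to 1.6% in the proximal tubule clusters. In NP, podocytes, stroma, endothelial and immune cells they took 0.30 to 0.38%. The LOH peaks were thus open across tubule epithelia, the collecting duct included, which arises from the ureteric bud and not from the nephron progenitor. The shares of NP and LOH restate how the sets were chosen, whereas those of the other 11 types were not used in the choice. Still, a type whose chromatin resembles that of LOH will be low in the NP set because of that choice.

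**Figure D4:**
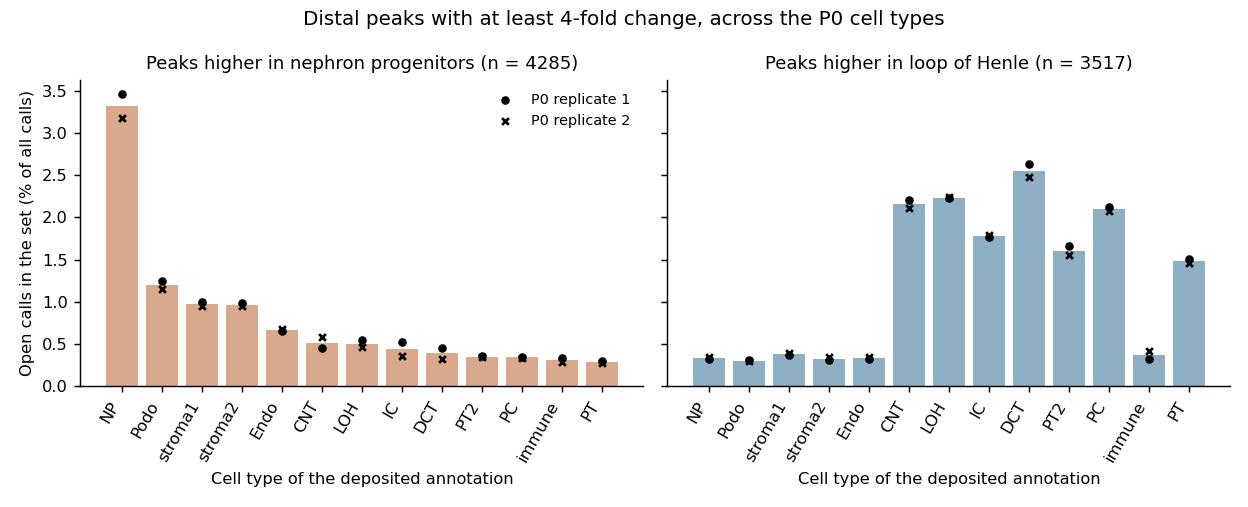
Percent of all open calls of a cell type (vertical axis) that fall in distal peaks at least 4-fold more open in nephron progenitors (left) or loop of Henle (right), for the 13 P0 cell types. Bars are means of the 2 samples and points are the samples. NP is highest on the left at 3.32%, followed by podocytes at 1.20%, and 7 tubule types share the right set, with the DCT at 2.56% above LOH.

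Single nuclei were not uniform. The median NP nucleus had 3.81% (replicate 1) and 3.59% (replicate 2) of its open calls in the NP set and 0.19% in the LOH set in either sample, and the median LOH nucleus had 0.38% and 0.30% in the NP set and 2.33% and 2.29% in the LOH set. Still, 48 NP nuclei of replicate 1 (4.65%) and 70 of replicate 2 (6.97%) had more open calls in the LOH set than in the NP set. Among LOH nuclei 591 (93.1%) and 612 (93.9%) did. Whether the nuclei that go against their cluster are transitional cells, misassigned nuclei or doublets was not tested.

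Near genes of the lists, distal and intronic peaks within 100 kb of the start were examined, against a background in which 32.5% of all 78676 distal and intronic peaks tested were more open in NP and 28% in LOH. The strongest peak of a gene is the one with the smallest p-value. At Six2, 7 of 10 peaks were more open in NP and 0 in LOH. The strongest lay 60377 bp from the start, the position of the third sequence shown, and was open in 37.7% and 45.1% of NP nuclei and 10.1% and 10.4% of LOH nuclei (2.06 ± 0.10), while the peak over the start differed by 1.54. The Six2 peaks were thus also open in a part of the LOH nuclei, in both samples at a similar share.

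At Eya1, 6 of 7 peaks were more open in NP and 0 in LOH, and the peak 34837 bp away was open in 16.2% and 17.6% of NP nuclei and 1.26% and 2.30% of LOH nuclei (3.28 ± 0.21). The Eya1 start differed by only 0.48. At Wt1, 19 of 23 peaks were more open in NP and 0 in LOH, and the strongest, open in 20.5% and 20% of NP nuclei, was open in a mean of 21.9% of podocytes as well. Uncx had 27 of 37 peaks more open in NP and 2 in LOH, Gdnf 7 of 11 and 0, and Wnt4 13 of 31 and 2.

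The LOH loci mirrored this. At Slc12a1, 11 of 13 peaks were more open in LOH and 1 in NP. The intronic peak 9828 bp into the gene was open in 0.29% and 0.6% of NP nuclei and 9.13% and 13% of LOH nuclei (-4.56 ± 0.32), and the start differed by -4.46. The start peak of Kcnj1 differed by -5.43. At Tfap2b 8 of 9, at Sim1 8 of 8, at Tfcp2l1 10 of 11, at Slc9a3 9 of 11 and at Pou3f3 15 of 19 peaks were more open in LOH, with 1 peak more open in NP, at Pou3f3.

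Peaks called in both directions within the counted region of 1 gene were common. Of 1824 protein-coding genes with at least 10 tested peaks, 1676 (91.9%) held both kinds. So did 465 of the 470 among them (98.9%) whose gene activity did not pass the threshold. Of all tested peaks, 28.3% were more open in NP and 27.6% in LOH, so a gene with many peaks is likely to hold both kinds. These shares are therefore no finding about the genes. Among distal and intronic peaks within 100 kb of the start, a window that reaches beyond the counted region, Pax8 and Notch2 also had both kinds. Pax8, a nephron lineage factor, differed by -0.24 in gene activity, but 9 of its 22 nearby peaks were more open in NP and 5 in LOH, and 1 of them, 78530 bp away, was open in 22.8% and 23.3% of NP nuclei and 2.36% and 2.76% of LOH nuclei (3.21 ± 0.17). Notch2, with -0.18 in gene activity, had 13 of 31 peaks more open in NP and 11 in LOH, and its strongest, 31700 bp away, was open in 19.3% and 21.8% of NP and 1.89% and 1.53% of LOH nuclei (3.63 ± 0.20). Counted at their starts alone, Pax8 and Notch2 activity had the opposite sign (0.34 and 0.062).

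For Hmga2, a growth regulator of embryonic cells, the start did not differ past the threshold (0.12), while an intronic peak differed by 2.57, open in 26.0% and 30.1% of NP and 4.41% and 5.37% of LOH nuclei.

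Over all lists, 220 genes had both a called activity and a called strongest nearby peak, with the same direction in 172 and opposite directions in 48. The strongest nearby peak was called in 334 of 344 list genes, and intronic peaks are themselves part of gene activity, so a large part of this overlap is fixed by how the peaks were chosen. Of all 27260 genes, 5079 held peaks called in both directions and 10086 held no called peak.

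Sequence composition of the distal peaks was compared by the share of peaks that hold a fixed string of letters on either strand of their central 300 bp. The strings were GNAACNTGA (Six2 family), CCATAAA (HOX posterior), GNGTGGGNG (WT1), CCATTGT (SOX), CTTTGAT (TCF and LEF), CATTCCA (TEAD), ATGCAAAT (POU octamer), TCAAGGTCA (ESRR), GCCNNNGGC (AP-2), AACCGGTT (GRHL), ACATGT (IRX), CAAAGTCCA (HNF4), TGANTCA (AP-1), TGTTTAC (FOX) and CNAGGGGGC (CTCF), where N is any base. No string contains another, but matches can overlap at their ends. A match is a description of the letters and not a binding site. Shares depend on the window: over whole peaks the letters of the Six2 family were in 13.9% of NP and 7.59% of LOH peaks, and the small differences of IRX (15.8% in both) and CTCF (1.35% and 1.02%) had the opposite sign.

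The POU octamer, the letters of factors such as Pou3f3, was in 3.81% of the distal peaks at least 4-fold more open in LOH, in 1.38% of those for NP and in 2.05% of all 31471 tested distal peaks. Pou3f3 was also among the genes with higher activity in LOH.

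The letters of the Six2 family went the other way, in 8.47% of NP and 3.72% of LOH peaks, against 5.2% of all. The WT1 string was in 13.4% of NP and 7.96% of LOH peaks against 12% of all, and the TCF and LEF string, that of the nuclear effectors of Wnt signals, in 7.28% and 4.49% against 5.61%. In its central 300 bp the 1700015G11Rik peak holds all 3, besides the FOX letters. The central 300 bp of the Six2 and Eya1 peaks hold no such letters of the Six2 family, while those of the LOH peak near Ttc34 hold them. The AP-2 letters were in 9.84% of LOH and 7.26% of NP peaks but also in 9.24% of all, and the Six2 peak in NP carries them as do those of Tfap2b and Slc12a1. The CTCF string, in 1.91% of all tested distal peaks, was rare in both sets (0.54% and 0.63%).

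Peaks at least 4-fold more open in NP and LOH had median GC contents of 46.7% and 45.7%. The direction for the Six2 family was also seen at each level of base composition. Split by the GC content of all tested peaks into a low, a middle and a high class of similar size, its letters were in 8.66%, 9.57% and 6.41% of NP peaks and in 3.84%, 3.41% and 3.86% of LOH peaks.

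**Figure D5:**
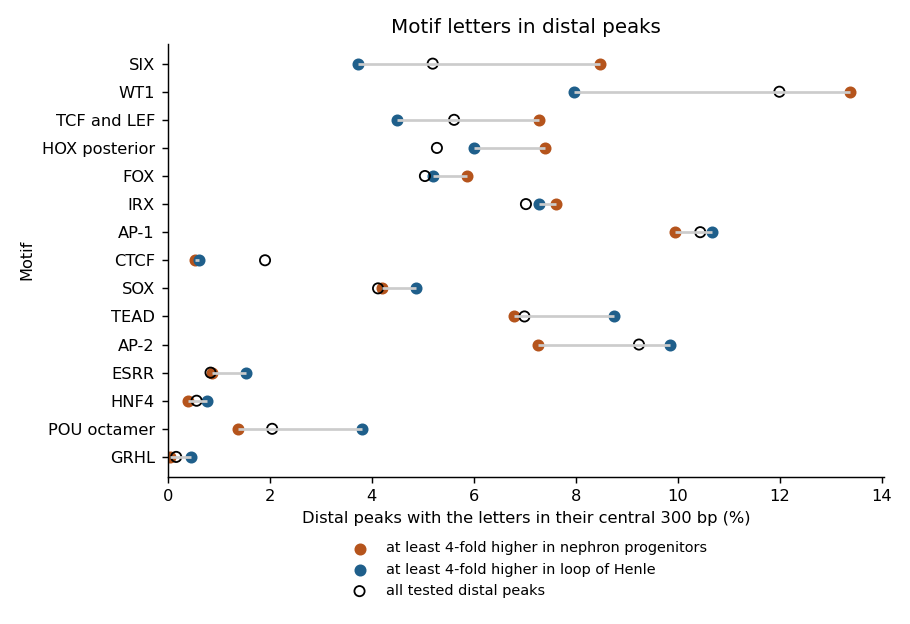
Percent of distal peaks whose central 300 bp hold the letters of a motif (horizontal axis) for 15 motifs (rows), in peaks at least 4-fold more open in nephron progenitors (orange), in loop of Henle (blue) and in all tested distal peaks (open circles). Among the motifs plotted the widest gaps are those of WT1, from 13.4% in progenitors to 7.96% in loop of Henle, and of the Six2 family, and the points of IRX and AP-1 lie close together.

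The same cluster names were also compared in the 3 adult samples, in which 195 nuclei are named NP and 2341 LOH. The data go against the name NP in adult kidneys. The 52, 90 and 53 adult nuclei named NP held 0, 0 and 1 open calls at Six2, their NP markers took 104, 119 and 117 per 1000000 open calls, ranks 8, 7 and 7 of the 13 types, and their LOH markers took 597, 475 and 513, ranks 3, 2 and 4. They are called adult NP-labelled nuclei here.

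Between adult NP-labelled and LOH nuclei, 10.4% of the 18280 genes tested were higher in the NP-labelled and 7.53% in LOH nuclei, and of 3194 distal peaks 21.9% and 22.4%. Of the 6054 genes higher in NP at P0, 3060 could be tested in the adult, where 768 (25.1%) were higher in the NP-labelled nuclei and 105 (3.43%) in LOH. Of the 6051 genes higher in LOH at P0, 4756 could be tested, where 841 (17.7%) were again higher in LOH and 439 (9.23%) in the NP-labelled nuclei. Few of the distal peaks of P0 NP had enough open calls in the adult to be tested, 265 of 10544, against 1881 of 8400 for LOH. Of these, 141 (53.2%) and 611 (32.5%) were called in the same direction, and 10 (3.77%) and 239 (12.7%) in the opposite one. A gene or peak can pass the count filter through only the cell type in which it is high. These shares therefore do not show how often a P0 difference recurs. Slc12a1 kept its direction, with 0.269, 0.0889 and 0.283 open calls per adult NP-labelled nucleus and 1.51, 0.795 and 1.65 per adult LOH nucleus, while Pou3f3 and Tfap2b, low in the NP of P0, reached 0.211 to 0.717 and 0.244 to 0.692 open calls per adult NP-labelled nucleus.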

How the data were processed

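Nuclei of 2 P0 and 3 adult kidney samples were profiled by snATAC-seq. The authors aligned the reads to mm10 (GRCm38) with Cell Ranger ATAC 1.1.0, kept barcodes by fragment number, mitochondrial share and promoter share, clustered nuclei with SnapATAC and Harmony, named clusters from markers, called peaks with MACS2 on the pooled nuclei of each cell type, merged them and deposited a matrix of open (1) or closed nuclei per peak, which serves here as counts. The submitters' processing notes also name Cell Ranger 3.1.0 and Seurat 3.0. Of the stored entries, 89197 were 0 and were read as closed. How peaks were called within the clusters can raise cluster differences, and a matrix of open or closed calls caps a strong peak at 1 call per nucleus.

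Open calls were summed per sample and cluster. Gene activity was the sum over peaks in the gene body and 2000 bp upstream (GENCODE annotation of GRCm38). Distal peaks overlapped no gene and no 5000 bp upstream of one. Sums were tested with edgeR 4.0.16 (R 4.3.3, limma 3.58.1) by the quasi-likelihood test, with filterByExpr (minimum count 10, minimum total 15), TMM scaling, the sample as block and Benjamini-Hochberg adjustment at 0.05. An SE was derived from each log2 fold change and its F statistic, as their ratio after taking the root of F. The common dispersion was 9.77e-05 in both fits, the lower limit of the values searched, so it is no measured spread. Variation of the NP to LOH difference beyond counting error enters through the quasi-likelihood dispersion, which is largely shared over all genes or peaks. Between replicates, chi-square per degree of freedom was 1.54 (NP) and 1.42 (LOH) over genes and 1.15 and 1.09 over peaks, so gene sums varied more than counting error. Binomial intervals cover counting error only. The block pairs sums of the same sample. Deviations of these sums from the cluster means correlated with r of 0.217 over genes and 0.0932 over peaks.

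The members and lists were chosen with earlier results of these data known. Besides list genes, the text names the 10 protein-coding genes and the 10 distal peaks with the largest fold change per direction (at least 0.1 open calls per nucleus, or 10% of nuclei, in both samples of the higher cluster, and the same direction in both samples). For list genes it names the distal or intronic peak with the smallest p-value within 100 kb of the start, called the strongest. Alternatives were DESeq2 1.42.0, other scalings, no filter, no block, all 13 cell types, thinned and equal numbers of nuclei, start windows, other definitions of distal, a stricter threshold and samples left out. Doublets were not searched for. Values of some list genes and of 1 motif are not reported here. The deposited single cell RNA-seq files and the embedding were not used. Tables were handled in Python 3.11.15 with pandas 2.3.3 and numpy 2.4.6, loops were compiled with numba 0.67.0, exact intervals came from scipy 1.17.1, and plots from matplotlib 3.10.9.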

Additional observations from a re-analysis of the deposited data

Results flagged for a closer look

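In 15 list genes, every P0 sample moved one way between NP and LOH and every adult sample the other way between the nuclei that carry the same cluster names, and the genes passed the threshold at both ages. These 15 are among the 236 named genes past the threshold at P0. The difference between the ages was not tested. Over all genes called at P0 and tested in the adult, 3.43% of those higher in NP and 9.23% of those higher in LOH were called in the opposite direction. The adult nuclei named NP lack open chromatin at Six2, as described above, so the name does not stand for the same cells at both ages. With start peaks alone the P0 values of Pax8 (0.34), Notch2 (0.062) and Egf (-0.046) had the same sign as the adult values.

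Of genes higher in LOH at P0, 12 were higher in adult NP-labelled nuclei. They include the epithelial genes Cldn4, with a log2 fold change of 3.41 in the adult and -1.89 at P0, Krt18, with 2.53 and -0.88, and Cgn, with 0.64 and -0.60. The sodium channel subunit gene Scnn1b had 1.93 and -0.69, and the endothelial receptor gene Tek 1.5 and -0.47. Among regulators, Irx3 had 1.26 and -0.74, Pax8 0.97 and -0.24, Klf5 0.97 and -0.41, Ehf 0.80 and -0.53, and Hoxb3 0.51 and -0.16. The receptor genes Notch1 and Notch2 had 0.73 and 0.43 in the adult against -0.28 and -0.18 at P0.

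Of genes higher in NP at P0, 3 were higher in adult LOH. Egf had -1.76 in the adult and 0.27 at P0, Wnk4 had -0.82 and 0.38, and Enox1 had -0.80 and 0.56.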

How the results depend on the processing

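Counts are given as genes or distal peaks higher in NP and higher in LOH. DESeq2 gave fewer calls, 2402 and 1953 genes and 6125 and 4841 distal peaks, and 2401 and 1953 of these genes were called in the same direction by edgeR. Thinning each nucleus to 1000 open calls left 1632 and 1432 genes and 1071 and 569 distal peaks, a share of 65.3% higher in NP among called distal peaks against 55.7%. Peaks around gene starts alone gave 3851 and 4161 genes, and of the called genes that could be tested so, 619 of 5010 higher in NP and 427 of 5297 higher in LOH changed sign, 131 and 69 of them past the threshold. Peaks over 5 kb from each annotated start, introns included, gave 22549 and 18246 peaks. Without the block that pairs NP and LOH of a sample, the counts were 5139 and 4955 genes and 10301 and 8217 distal peaks. The other scalings, no filter, all 13 cell types, equal numbers of nuclei and a threshold of 0.01 kept each count within 1.5 times its value. The shares fell where more peaks were tested. Without the filter 14.2% and 9.75% of 94026 distal peaks were called, and with all 13 cell types 17.7% and 14.8% of 50356.

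With start peaks alone the log2 fold change had the opposite sign for Cldn14 (-0.20), Cnnm2 (0.064), Cubn (-0.0071), Egf (-0.046), Fgfr2 (-0.19), Hoxa3 (-0.32), Igf2bp1 (0.0097), Laptm5 (-0.52), Notch2 (0.062), Pax8 (0.34), Ret (-0.45) and Wnk1 (0.057). Of these, Pax8, Hoxa3, Fgfr2 and Ret passed the threshold in that direction. After thinning it did for Calb1 (-0.30), Egfl7 (-0.067) and Lgr5 (0.083). The cause was not tested. Whole peaks contain their central 300 bp, so motif shares over them can only rise, and 30 of 32 rose beyond the binomial interval of the central share. The direction of the difference between NP and LOH changed only for IRX and CTCF. Leaving out a P0 sample leaves 1 sample and no test. The 236 of 349 named genes and 315 of 325 named peaks past the threshold kept their sign in either sample alone. They were called from these same samples, and the ranked ones were chosen for the same direction in both. This agreement was therefore largely fixed in advance. With DESeq2, 80 of these 236 genes and 24 of these 315 peaks lost their call. After thinning, 315 named genes and 141 named peaks could be tested, called or not, and 88 genes and 14 peaks lost their call. Leaving out each adult sample in turn changed the share of tested P0 calls that were called in the same direction among the adult nuclei. For P0 NP calls it ranged from 17.2% to 23.5% for genes and from 40.5% to 47.3% for distal peaks. For P0 LOH calls it ranged from 12.5% to 16.3% and from 23.3% to 25%. With 2 samples per cell type, differences in peaks open in few nuclei rest on few open calls.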

Other observations

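The loci below were chosen after their values were seen. Of all tested distal peaks, 33.5% were more open in NP and 26.7% in LOH. Distal peaks whose nearest protein-coding start is that of Sall1, a zinc finger factor that progenitors and nephron epithelia both use, were split evenly, with 27 of 73 more open in NP and 27 in LOH. Other loci moved to 1 side. Of 24 distal peaks nearest to Cdh11, 21 were more open in NP and 0 in LOH, and of 32 nearest to Ajap1, 21 and 2. Of 18 nearest to Tfap2b, 15 were more open in LOH and 1 in NP, and of 32 nearest to Ppargc1a, 19 and 5.

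The samples resembled each other more than the cell types did. Over genes, the log activity of NP in the samples correlated with r = 0.990 and that of LOH with r = 0.986, against 0.919 and 0.925 between NP and LOH within a sample. Over peaks these values were 0.967 and 0.952 against 0.626 and 0.652. They are across genes or peaks, which are not independent replicates.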
